A study of Homo sapiens with 12 samples.

Results

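The genes described here are ATF4 and 9 genes that respond to it or to stress of the endoplasmic reticulum (ER), in MDA-MB-231 cells depleted of the transcriptional coactivators YAP and TAZ. MDA-MB-231 is an established human line of triple-negative breast cancer. The 10 members were fixed by name (ATF4, DDIT3, TRIB3, ASNS, CHAC1, PPP1R15A, HSPA5, DNAJB9, HERPUD1 and SDF2L1), and every probe set that the platform annotation gives to them was taken, 17 in all of 41091 usable probe sets. The 12 samples formed 3 groups of 4 cultures, labelled A to D within each group. Control cells received a control siRNA, and the other groups received siRNA mix #1 or siRNA mix #2 against both YAP and TAZ. All groups alike were seeded on day 1, given siRNA at 33 nM with a lipid reagent on day 2, given new medium on day 3 and harvested on day 4, so the controls carry the transfection too. Total RNA was measured on Affymetrix expression arrays, and levels are given in log2 units of the deposited RMA values. The siRNA sequences were not used here, and each mix is 1 reagent, so its effects on YAP and TAZ and on other transcripts cannot be told apart within that mix.

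Cells lower general translation when the initiation factor eIF2 is phosphorylated by stress kinases, among them the ER sensor PERK and the amino acid sensor GCN2. Translation of the ATF4 mRNA then rises through its upstream reading frames, and ATF4, a bZIP transcription factor, turns on genes of amino acid supply and stress, of which ASNS, TRIB3, CHAC1 and DDIT3 are standard readouts. The ER sensors IRE1, which splices XBP1 mRNA, and ATF6, which is cut to a nuclear factor, raise chaperones and degradation factors of the ER such as HSPA5, DNAJB9, HERPUD1 and SDF2L1. ATF4 protein depends strongly on translation, so the level of its mRNA is not a measure of its activity.

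Promoter sequences show which of the known response elements lie near the start of these genes. RefSeq promoters of GRCh38.p14, running from 250 bases before to 50 after each annotated start, were found for all 10 members and were searched on both strands for 4 known elements. The ER stress response element, ERSE (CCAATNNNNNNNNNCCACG), was present in 0.077% of 35116 promoters and, among the members, only in HSPA5. The core of ERSE-II (ATTGG, any base, then CCACG) was present in 0.054% of promoters and, among the members, in HERPUD1 and SDF2L1. The core of the amino acid response element that ATF4 binds (TGATGNAA) was present in 3.62% of promoters and in ASNS, CHAC1 and HERPUD1. The core of the XBP1 element UPRE (TGACGTGG) was present in 0.729% of promoters and in none of the 10. DNAJB9 held none of these but 2 copies of CCACG, the 5 bases that ERSE and ERSE-II share and that 38.09% of promoters and 8 of the 10 members hold. These stretches are shown because the 4 ER genes, all with ERSE, ERSE-II or CCACG letters, did not move alike in the arrays, while ASNS and CHAC1 both fell. HERPUD1, which also holds the amino acid response element core, rose. Its copy lies on the opposite strand, 176 to 169 bases upstream, and so outside its printed stretch. ASNS has 2 promoters in the table, of which the one with the match is shown. Capitals mark the match, on either strand, and each stretch ends before the annotated start.
HSPA5 (chr9:125241346-125241454, minus strand; ERSE 66 to 48 bases upstream): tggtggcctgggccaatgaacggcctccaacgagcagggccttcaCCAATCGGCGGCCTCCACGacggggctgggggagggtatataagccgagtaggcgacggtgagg
HERPUD1 (chr16:56931980-56932080, plus strand; ERSE-II core 117 to 107 bases upstream): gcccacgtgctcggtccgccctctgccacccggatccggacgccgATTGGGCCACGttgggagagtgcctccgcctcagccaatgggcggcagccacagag
SDF2L1 (chr22:21642069-21642169, plus strand; ERSE-II core on the opposite strand, 188 to 178 bases upstream): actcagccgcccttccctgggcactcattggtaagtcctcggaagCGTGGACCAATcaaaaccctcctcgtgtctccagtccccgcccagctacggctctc
DNAJB9 (chr7:108569755-108569873, plus strand; CCACG 74 to 70 bases upstream and its complement 47 to 43): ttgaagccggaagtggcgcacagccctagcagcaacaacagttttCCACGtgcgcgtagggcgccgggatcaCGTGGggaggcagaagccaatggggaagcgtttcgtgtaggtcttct
ASNS (chr7:97872424-97872521, minus strand; amino acid response element core 68 to 61 bases upstream): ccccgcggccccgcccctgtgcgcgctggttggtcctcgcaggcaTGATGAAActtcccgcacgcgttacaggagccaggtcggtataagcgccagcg
CHAC1 (chr15:40953221-40953314, plus strand; the same core on the opposite strand, 209 to 202 bases upstream): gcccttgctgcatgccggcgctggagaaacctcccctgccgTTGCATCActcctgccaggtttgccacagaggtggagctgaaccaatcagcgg
A match is a description of the letters only, and no binding was measured here.

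Both mixes lowered their targets: YAP1 mRNA was at 12.4% of control with mix 1 and 11.9% with mix 2, and WWTR1, which encodes TAZ, at 19.8% and 18.3%. Array medians lay between 5.69 and 5.78. Vimentin (14.28 in control) and CD44 (12.22) were high and the epithelial cadherin CDH1 (3.98) was near background, as is known for this line. Of the other epithelial and luminal markers, PGR (3.56) and FOXA1 (4.62) were low in control too. KRT18 (12.88), KRT19 (11.63), KRT8 (10.63) and EPCAM (9.57) were well above them, with GATA3 (8.2), ESR1 (6.31) and ELF3 (5.86) between. TGFBI (7.8) was the lowest of the line's own markers. Markers of other cell types were measured for comparison. Of 5 tested leukocyte markers 3 rose under both mixes. They were LYZ (4.96 in control, 9.14 with mix 1 and 9.18 with mix 2), CD74 (7.95, 9.51 and 9.5) and CD14 (5.15, 6.26 and 6.39). The log2 of the summed signal over 6 leukocyte genes went from 8.76 to 8.93 in control to 10.47 to 10.72 with mix 1 and 10.48 to 10.63 with mix 2. CD3E and ITGAM did not pass, and PTPRC, the pan-leukocyte gene, stayed below the filter (4.04, 3.80 and 4.47). Of 4 tested endothelial and fibroblast markers 3 rose under both mixes (summed over 9 genes 8.78 to 8.95, 10.25 to 10.49 and 9.79 to 9.91). They were PECAM1 (6.54, 8.62 and 7.88), COL1A1 (7.04, 9.34 and 8.52) and PDGFRB (5.9, 6.56 and 6.78). VWF did not pass, and CDH5 was near background in every group (3.92 to 3.97). Of 7 tested epithelial and luminal markers 3 rose and 2 fell with mix 1 and 4 rose and none fell with mix 2, by limma at adjusted p below 0.05 (summed over 10 genes 13.67 to 13.76, 14.21 to 14.33 and 13.93 to 14.17). Of 8 markers of the line itself 2 rose and 5 fell with mix 1 and 1 rose and 4 fell with mix 2 (summed 15.78 to 15.84, 15.52 to 15.60 and 15.62 to 15.65). Beside these counts, 34.8% of all genes were higher and 32.3% lower with mix 1, and 36.7% and 31.9% with mix 2. The part of any of these markers in the results on the 10 genes was not tested. RNA quality, read as the 3′ minus the 5′ probe set of GAPDH, overlapped between the groups (0.34 to 0.45, 0.33 to 0.51 and 0.33 to 0.42 log2). For ACTB this measure was larger and wider, and it overlapped too (1.38 to 1.99, 1.61 to 2.24 and 1.36 to 1.83 log2). In bulk RNA, fewer cells of a type and less RNA per cell cannot be told apart.

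In cells given YAP and TAZ siRNA the members differed from control in both directions. DNAJB9 and HERPUD1, both of the ER, rose under mix 1 and mix 2, by 2.67-fold and 2.91-fold and by 2.03-fold and 1.98-fold. On the ATF4 side, ASNS, CHAC1, PPP1R15A and DDIT3 fell under both mixes and TRIB3 rose. ATF4 itself fell and HSPA5 rose with mix 2, and neither passed the threshold with mix 1. A gene was called when the limma adjusted p, taken over all 13225 genes tested, was below 0.05. With mix 1, 3 members were higher and 4 lower, where 34.8% of all genes were higher and 32.3% lower. With mix 2, 4 members were higher and 6 lower, against 36.7% and 31.9% of all genes. Because so many genes changed, 7 of 10 members called with mix 1 is close to the 67.1% of all genes called, and the 10 of 10 with mix 2 stands beside 68.6%. The median difference of the members was -0.16 log2 with mix 1 and -0.38 with mix 2, against 0.00 and 0.03 over all genes. Both comparisons use the same 4 control arrays. Overlap of the groups is described for single genes below, and the share of all genes without overlap was not counted.

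**Figure D1:**
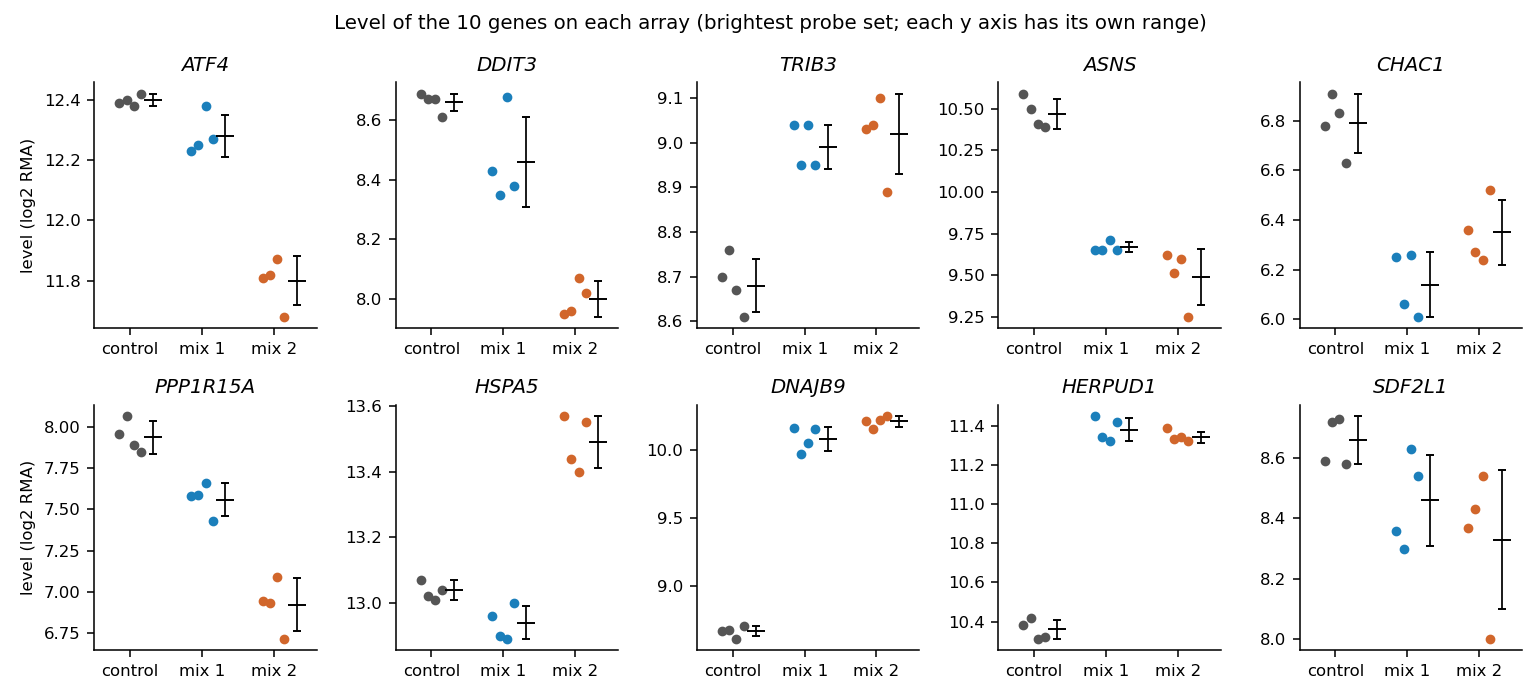
Level of each of the 10 genes on each array (y axis, log2 RMA value of the brightest probe set; points, arrays A to D from left to right; black mark and bar, group mean and SD, n = 4) in control, mix 1 and mix 2. DNAJB9, HERPUD1 and TRIB3 lie above control on all 8 knockdown arrays, and ASNS, CHAC1 and PPP1R15A lie below it on all 8.

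ATF4 mRNA was at 12.39, 12.40, 12.38 and 12.42 in control cultures A to D, at 12.23, 12.25, 12.38 and 12.27 with mix 1 and at 11.81, 11.82, 11.87 and 11.68 with mix 2. All mix 2 arrays lay below all others, whereas mix 1 replicate C reached the lowest control value. The fall with mix 2 was 0.60 on the log2 scale (SE 0.06, adjusted p = 1.94e-07), which left 65.9% of the control level. With mix 1 the difference of -0.12 (SE 0.06, 95% interval -0.24 to 0.01) did not pass (adjusted p = 0.0866). It passed at nearly the same size without mix 1 replicate C (-0.15, adjusted p = 0.0335), without mix 2 replicate D (-0.12, adjusted p = 0.0427), with arrays centred on their medians (-0.14, adjusted p = 0.0307) and with a trended robust variance (-0.12, adjusted p = 0.028). Over the 20 alternatives its adjusted p ran from 0.028 to 0.19.

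DDIT3 encodes CHOP, a bZIP factor that ATF4 induces and that promotes cell death under lasting stress. Its levels were 8.69, 8.67, 8.67 and 8.61 in control, 8.43, 8.35, 8.68 and 8.38 with mix 1 and 7.95, 7.96, 8.07 and 8.02 with mix 2. The mix 2 arrays were again the lowest without overlap, and mix 1 replicate C lay inside the control range. DDIT3 fell by 0.66 on the log2 scale with mix 2 (SE 0.07, adjusted p = 7.51e-07). With mix 1 it fell by 0.20 (SE 0.07, adjusted p = 0.0201), a call lost without mix 1 replicate B (-0.16, adjusted p = 0.0661) or D (-0.17, adjusted p = 0.059). Among the 9 other members DDIT3 had the profile nearest to ATF4, at a root mean square distance of 0.0924 log2 over the 12 arrays after the control mean of each gene was subtracted.

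ASNS makes asparagine from aspartate and glutamine, and its promoter holds the amino acid response element core printed above. Its brightest probe set read 10.59, 10.50, 10.41 and 10.39 in control, 9.65, 9.65, 9.71 and 9.65 with mix 1 and 9.62, 9.51, 9.60 and 9.25 with mix 2. Every knockdown array was below every control array. The differences were -0.81 with mix 1 (SE 0.08, adjusted p = 3.09e-07) and -0.98 with mix 2 (SE 0.08, adjusted p = 3.43e-08), which left 57.1% and 50.8% of control. Its name ends in _s_at, which like _x_at and _a_at marks a shared probe set, one that can bind several transcripts, and so do the names of the brightest probe sets of DNAJB9, HERPUD1 and SDF2L1. The other ASNS probe set was near background (2.65 to 3.12), below the filter of 5.46.

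CHAC1 degrades glutathione and is a sensitive target of ATF4. It was dim, at 6.78, 6.91, 6.83 and 6.63 in control, 6.25, 6.06, 6.26 and 6.01 with mix 1 and 6.36, 6.27, 6.24 and 6.52 with mix 2. The groups did not overlap with control under either mix. CHAC1 fell by 0.64 on the log2 scale with mix 1 (SE 0.08, adjusted p = 7.21e-06) and by 0.44 with mix 2 (adjusted p = 0.000263).

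PPP1R15A (GADD34) guides protein phosphatase 1 to eIF2 and so restores translation after stress. Its brightest probe set was at 7.96, 8.07, 7.89 and 7.85 in control, 7.58, 7.59, 7.66 and 7.43 with mix 1 and 6.94, 6.93, 7.09 and 6.71 with mix 2, and the 3 groups did not overlap. PPP1R15A fell by 0.38 on the log2 scale with mix 1 (SE 0.08, adjusted p = 0.000809) and by 1.02 with mix 2 (SE 0.08, adjusted p = 3.22e-08), to 77.0% and 49.1% of control. The other probe set fell alike, by 0.35 (adjusted p = 0.0136 over probe sets) and 0.97 (adjusted p = 2.44e-06).

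TRIB3, a pseudokinase that dampens ATF4 and AKT signalling, rose where ASNS, CHAC1, PPP1R15A and DDIT3 fell. It was at 8.70, 8.76, 8.67 and 8.61 in control, 9.04, 8.95, 9.04 and 8.95 with mix 1 and 9.03, 9.04, 9.10 and 8.89 with mix 2. All 8 knockdown arrays exceeded all controls. The rise was small, 0.31 with mix 1 (SE 0.06, adjusted p = 0.000293) and 0.33 with mix 2 (SE 0.06, adjusted p = 0.00016), or 1.24-fold and 1.26-fold. A second TRIB3 probe set lay below the filter, at 5.14 to 5.73, and was not tested.

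**Figure D2:**
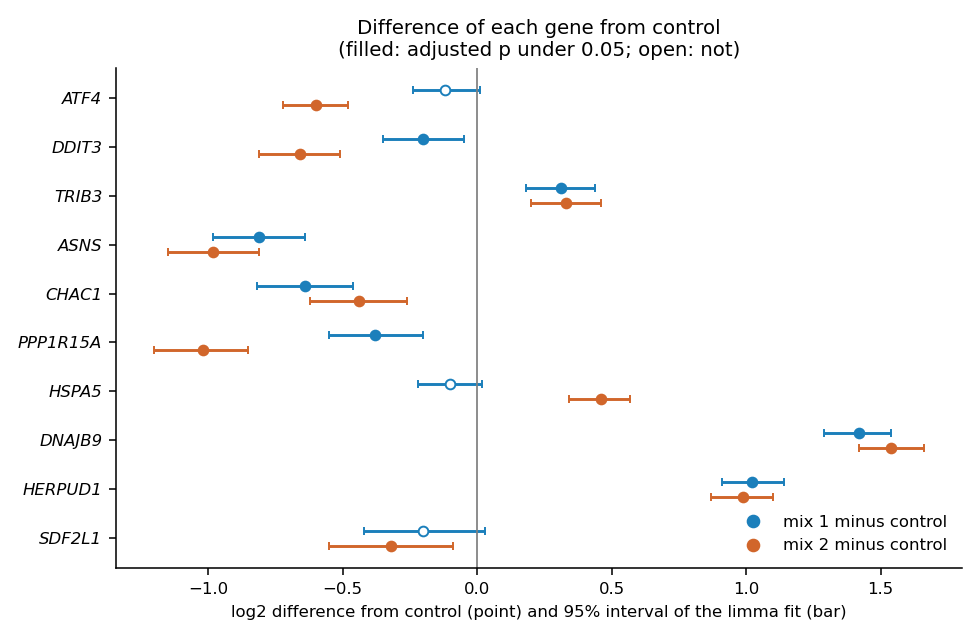
Log2 difference of each gene from control (x axis; points, limma estimate from 4 arrays per group; bars, 95% interval) for mix 1 and mix 2, with filled points for adjusted p below 0.05. DNAJB9 and HERPUD1 lie near 1 or above under both mixes, while ATF4, DDIT3, PPP1R15A and HSPA5 have separate points for the 2 mixes.

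DNAJB9 (ERdj4) is an ER cochaperone that brings HSPA5 to IRE1 and to misfolded proteins, and IRE1 and XBP1 are known to induce it. It had the highest rise of the members. Its brightest probe set was at 8.67, 8.68, 8.61 and 8.71 in control, 10.16, 9.97, 10.05 and 10.15 with mix 1 and 10.21, 10.15, 10.22 and 10.25 with mix 2. The gap between the highest control and the lowest knockdown array was far wider than the spread in any group. DNAJB9 rose by 1.42 log2 with mix 1 (SE 0.06, adjusted p = 2.09e-11) and by 1.54 with mix 2 (SE 0.06, adjusted p = 6.75e-12). The other 2 probe sets of DNAJB9 rose as well, by 1.16 and 0.95 with mix 1 (adjusted p = 6.41e-06 and 2.82e-06) and by 1.29 and 0.50 with mix 2 (adjusted p = 1.96e-06 and 0.000963). The size of the rise with mix 2 thus ranged from 0.50 to 1.54 with the probe set read, and the lowest value is that of the only one not of the shared kind.

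HERPUD1 sits in the ER membrane and helps assemble the ubiquitin ligase complex that removes misfolded proteins. Its levels were 10.38, 10.42, 10.31 and 10.32 in control, 11.45, 11.34, 11.32 and 11.42 with mix 1 and 11.39, 11.33, 11.34 and 11.32 with mix 2. All 8 knockdown arrays lay well above the controls and the mixes overlapped. HERPUD1 rose by 1.02 log2 (SE 0.05, adjusted p = 2.81e-10) and 0.99 (SE 0.05, adjusted p = 3.53e-10). Its dim second probe set (5.28 to 5.86) did not pass under either mix, at 0.07 (adjusted p = 0.6) and -0.02 (adjusted p = 0.888), and the mean of both probe sets gave 0.55 and 0.48 log2. Both HERPUD1 probe sets are of the shared kind, so it has no value without them.

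HSPA5 (BiP) is the main HSP70 chaperone of the ER lumen and holds the stress sensors inactive when bound to them. Its brightest probe set was at 13.07, 13.02, 13.01 and 13.04 in control, 12.96, 12.90, 12.89 and 13.00 with mix 1 and 13.57, 13.44, 13.40 and 13.55 with mix 2. All mix 2 arrays were above all controls, and all mix 1 arrays were just below them. HSPA5 rose by 0.46 log2 with mix 2 (SE 0.06, adjusted p = 3.31e-06), and the difference of -0.10 with mix 1 (SE 0.06, 95% interval -0.22 to 0.02) did not pass (adjusted p = 0.136; 0.0337 with a trended robust variance). The second HSPA5 probe set moved the other way under both mixes. It was at 8.37, 8.38, 8.34 and 8.38 in control, 8.64, 8.59, 8.76 and 8.69 with mix 1 and 7.86, 8.03, 8.05 and 7.66 with mix 2, a rise of 0.30 (adjusted p = 0.00415) and a fall of 0.47 (adjusted p = 0.00012). The annotation gives no accession for it, so the transcript it reads was not identified here. The direction of HSPA5 rests on the bright probe set: the mean of both gave -0.01 with mix 2 (adjusted p = 0.921). Over the 20 alternatives the mix 1 difference ran from -0.13 to 0.1, so its sign changed too.

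SDF2L1 is part of a chaperone complex with HSPA5 in the ER lumen. Its levels were 8.59, 8.72, 8.73 and 8.58 in control, 8.36, 8.30, 8.63 and 8.54 with mix 1 and 8.37, 8.43, 8.54 and 8.00 with mix 2. Mix 1 overlapped with control and mix 2 did not. The fall with mix 2 was 0.32 on the log2 scale (SE 0.11, adjusted p = 0.0147), and the difference of -0.20 with mix 1 did not pass (adjusted p = 0.116), although it passed without mix 2 replicate D (adjusted p = 0.0358) and when mix 2 was kept out of the fit (adjusted p = 0.0498). HERPUD1 and SDF2L1 both hold the ERSE-II core, and with mix 2 HERPUD1 rose and SDF2L1 fell. With mix 1 only HERPUD1 passed.

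**Figure D3:**
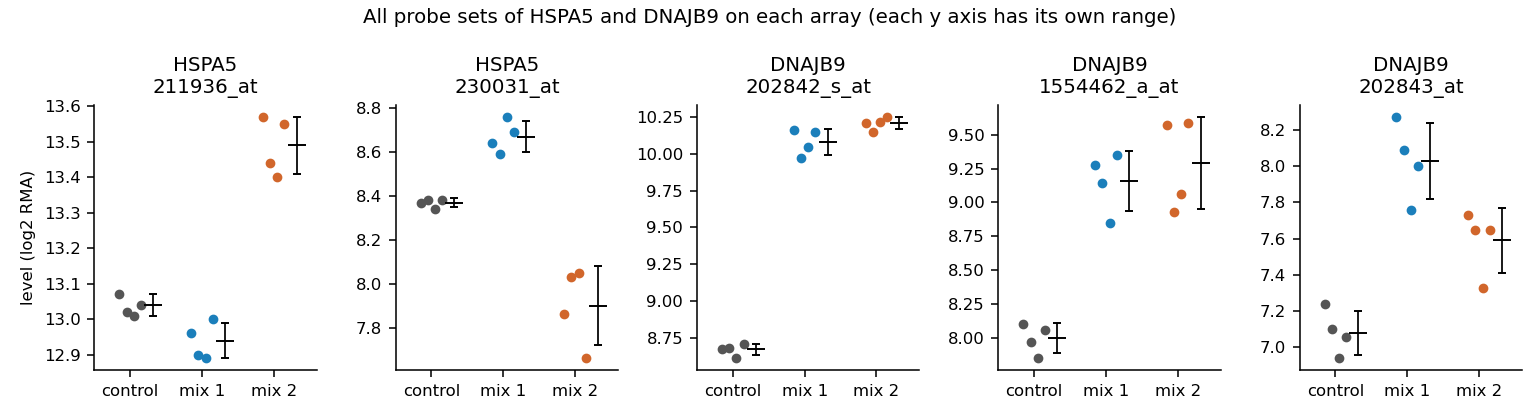
Level of every probe set of HSPA5 and DNAJB9 on each array (y axis, log2 RMA value; points, arrays A to D; black mark and bar, mean and SD, n = 4). The 2 HSPA5 probe sets order the groups in opposite ways, and all 3 DNAJB9 probe sets are higher in both knockdown groups than in control.

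Of the 17 probe sets of the members, 15 passed the filter and were tested at the level of probe sets. With mix 1, 6 were higher and 5 lower, where 65.0% of all 24650 probe sets were called in either direction. With mix 2, 6 were higher and 8 lower (66.2% of all called). Without probe sets that can be shared between transcripts, 3 were higher under each mix, of 9 left. In that setting 34.4% and 34.6% of 10179 genes were higher with mix 1 and mix 2 at the level of genes. The share over all probe sets was not counted there, so the units differ. The 3 were probe sets of TRIB3, DNAJB9 and HSPA5. For HSPA5 it was the second probe set with mix 1 and the bright one with mix 2.

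Between the mixes, 1 member was higher with mix 2 and 3 were lower, where 28.7% of all genes were higher and 25.0% lower. HSPA5 was 1.47-fold higher with mix 2 by its bright probe set (0.55 log2, SE 0.06, adjusted p = 9.75e-07), and its second probe set was lower by more (-0.77, adjusted p = 1.75e-06 over probe sets). PPP1R15A was lower with mix 2 (-0.65 log2, SE 0.08, adjusted p = 9.72e-06). ATF4 (-0.49, SE 0.06, adjusted p = 4.15e-06) and DDIT3 (-0.46, SE 0.07, adjusted p = 5.97e-05) were lower too. The other 6 did not pass, with intervals of -0.11 to 0.15 for TRIB3, -0.15 to 0.08 for HERPUD1, 0.00 to 0.25 for DNAJB9, -0.35 to 0.10 for SDF2L1, -0.34 to 0.00 for ASNS and 0.02 to 0.38 for CHAC1. CHAC1 (adjusted p = 0.0548) passed without control replicate D, mix 1 replicate A or C or mix 2 replicate C (0.20 to 0.24, adjusted p = 0.0349 to 0.0465), and ASNS (adjusted p = 0.0825) passed without mix 2 replicate A (-0.21, adjusted p = 0.0477). Among the members' probe sets 1 was higher and 6 were lower with mix 2 (51.3% of all probe sets called). The lower ones included the second probe set of HSPA5 and 1 of DNAJB9 (-0.44, adjusted p = 0.004), so the probe sets of HSPA5 disagreed in direction and the probe sets of DNAJB9 did not give 1 answer on the mixes.

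Within groups the same array was often highest or lowest for several members. In mix 1, replicate C had the highest value for 6 of the 10 (ATF4, DDIT3, ASNS, CHAC1, PPP1R15A and SDF2L1). This culture also had the lowest YAP1 level of its group (7.67). Its array median was the highest (5.78), close to that of replicate D (5.77). Its upper quartile over all probe sets (7.81) was level with that of D and below those of A and B (7.87 and 7.84). In control, replicate D had the lowest value for 6 of the 10. In mix 2, replicate D had the lowest value for 6 of the 10. Its upper quartile (7.70) was below that of the other mix 2 arrays (7.79 to 7.85), while its median (5.73) was level with theirs (5.73 to 5.74). The same counts were not made over all genes, so they are not shown to be particular to the members. The part of these array levels in the members' spread was not tested. By the same root mean square distance, the 3 genes nearest to ATF4 of all those tested were EOLA1 (0.0544), TSPAN14 (0.0584) and EOLA2 (0.0603). EOLA1 and EOLA2 are near copies read by probe sets that can bind both. Those nearest to HSPA5 were HMGN3 (0.0517), ADD3 (0.0673) and TMEM14C (0.0689).

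The rest of the pathway was followed in 10 lists that do not contain the members. Their counts stand beside 34.8% of all genes higher and 32.3% lower with mix 1, and 36.7% and 31.9% with mix 2. Upstream, of 14 genes for the eIF2 kinases, eIF2, its exchange factor eIF2B and its phosphatases, 3 were higher and 9 lower with mix 1 (median -0.40) and 3 higher and 6 lower with mix 2 (median -0.04). EIF2AK2 (PKR, the kinase that senses double-stranded RNA) rose by 0.50 and 0.26 log2 (adjusted p = 0.000168 and 0.0191), the second of which did not pass without control replicate C (0.19, adjusted p = 0.0718) or with centred arrays (0.24, adjusted p = 0.053). EIF2S1, the phosphorylated subunit of eIF2, fell by 1.18 and 0.96, and EIF2S2, another eIF2 subunit, by 1.08 and 0.30. Without shared probe sets EIF2S1 read 0.09 with mix 1 (adjusted p = 0.232) and -0.43 with mix 2, and EIF2S2 -0.26 and -0.49. EIF2AK3, which encodes PERK and was named after its values were seen, passed in opposite directions, at 0.57 and -0.51. Of 9 tested bZIP partners and relatives of ATF4, 5 rose and 2 fell with mix 1 and 3 rose and 4 fell with mix 2 (medians 0.16 and -0.21). NFE2L1 (1.20 and 0.71) and BATF3 (0.35 and 0.85) rose, and CEBPG, a partner of ATF4, fell (-0.73 and -0.82). ATF3 (0.59 and -0.29) and CEBPB (0.31 and -0.51), both named after their values were seen, rose with mix 1 and fell with mix 2.

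Genes of amino acid synthesis and transport that ATF4 is known to activate were mostly lower, like ASNS. Of 17 tested, 3 were higher and 13 lower with mix 1 (median -0.60), and 1 was higher and 12 lower with mix 2 (median -0.73). Without control replicate A or mix 1 replicate C, 2 were higher with mix 2. Among all genes 34.8% were higher and 32.3% lower with mix 1, and 36.7% and 31.9% with mix 2. The mitochondrial folate enzymes SHMT2 (-1.86 and -1.33) and MTHFD2 (-1.82 and -1.50) fell, and PSPH, the last step of serine synthesis, rose (0.77 and 0.55). With shared probe sets left out, PSPH read 0.05 (adjusted p = 0.807) and 0.24 (adjusted p = 0.175) and did not pass. Adjusted p-values in this and the next paragraphs, where not given, lie below the threshold. SLC7A11, the cystine transporter, which was named after its values were seen, passed in opposite directions (0.20 and -0.73), and 1 of its other probe sets moved against the brightest. Its mix 1 call was lost without control replicate A or B or mix 1 replicate A or D (0.16 to 0.19, adjusted p = 0.0537 to 0.0816) and with the mean of its probe sets (0.00, adjusted p = 0.985). In the list of other targets of ATF4 and CHOP, 11 of 18 were higher and 4 lower with mix 1 (median 0.27) and 10 higher and 4 lower with mix 2 (median 0.23). Without shared probe sets 5 of 10 were higher with mix 1 and 3 of 10 with mix 2, where 34.4% and 34.6% of all genes were higher. The stress cytokine GDF15 rose by 3.20 and 2.70 and DDIT4, an inhibitor of mTORC1, by 1.72 and 1.45, while the translation repressor EIF4EBP1 (-1.34 and -1.34) and the tRNA exporter XPOT (-0.99 and -0.59) fell. GDF15 and DDIT4 are also known targets of other stress factors.

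**Figure D4:**
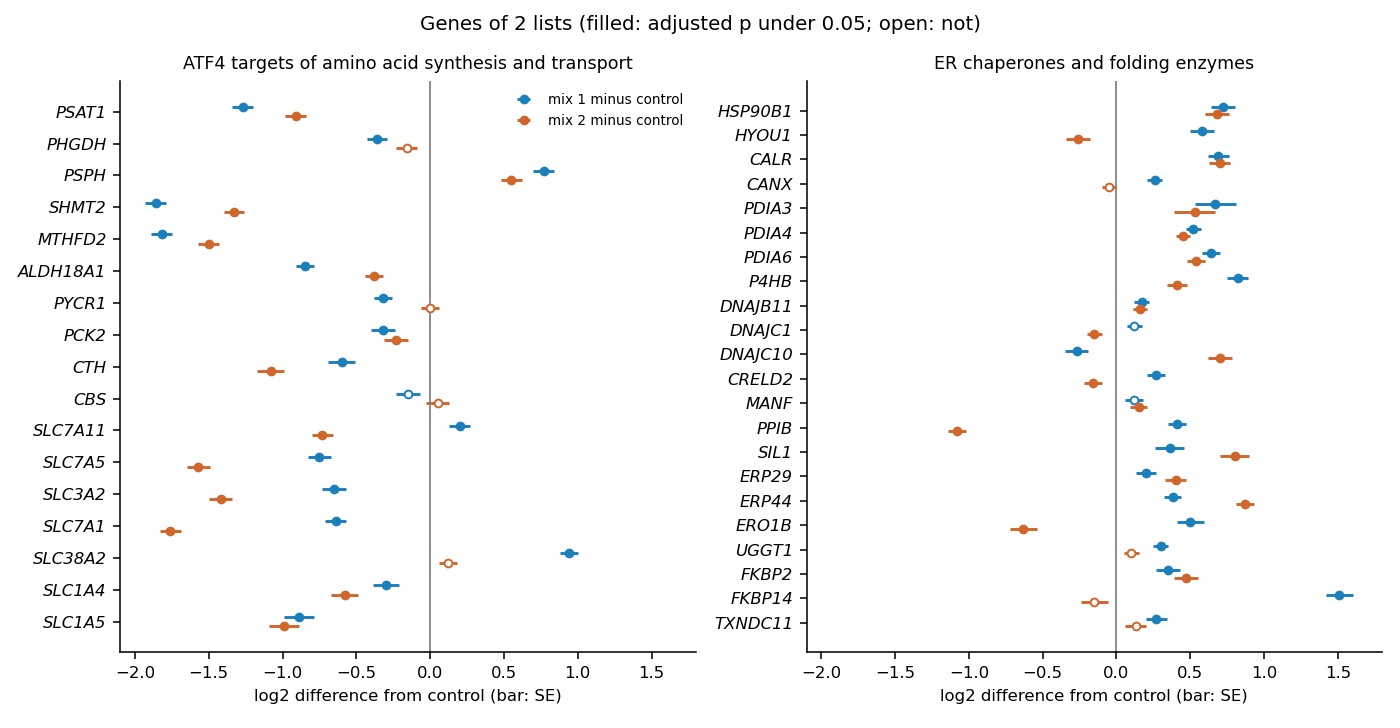
Log2 difference from control (x axis; points, limma estimate from 4 arrays per group; bars, SE) for each tested gene of the amino acid list and of the ER chaperone list, for mix 1 and mix 2, with filled points for adjusted p below 0.05. Most of the 17 amino acid genes lie below 0, and most of the 22 chaperone genes above 0.

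On the ER side, 10 of 13 genes for the ER stress sensors and their processing rose with mix 1 and 1 fell (median 0.53), and 8 rose and 4 fell with mix 2 (median 0.42). Among all genes 34.8% were higher and 32.3% lower with mix 1, and 36.7% and 31.9% with mix 2. CREBRF, a negative regulator of the unfolded protein response, rose by 2.47 and 1.84, and XBP1 by 0.88 and 2.26, while the ligase RTCB, which joins spliced XBP1 mRNA, fell by 0.30 and 0.30. The XBP1 level was 8.94 ± 0.19 (SD, n = 4) in control cells, 9.81 ± 0.23 after mix 1 and 11.20 ± 0.18 after mix 2, and the difference between the mixes was 1.38 (adjusted p = 3.17e-07). These probe sets do not separate spliced from unspliced XBP1. ERN1, which encodes IRE1 (0.96 and -0.42), and the site-2 protease gene MBTPS2, whose product cuts ATF6 (0.24 and -2.73), passed in opposite directions and were named after their values were seen. The MBTPS2 level averaged 10.00 ± 0.07 in control cells, 10.24 ± 0.08 after mix 1 and 7.27 ± 0.13 after mix 2 (SD, n = 4).

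Among 22 tested ER chaperones and folding enzymes, mix 1 gave 19 higher and 1 lower (median 0.37) and mix 2 gave 13 higher and 5 lower (median 0.28), or 3 lower without control replicate C. HSP90B1 (GRP94) rose by 0.72 and 0.68 and the lectin chaperone CALR by 0.69 and 0.70. Passing in opposite directions were 5 genes, named after their values were seen: HYOU1 (0.58 and -0.26), CRELD2 (0.27 and -0.16), PPIB (0.41 and -1.08) and ERO1B (0.50 and -0.63) rose with mix 1 and fell with mix 2, and DNAJC10 did the reverse (-0.27 and 0.70), with 1 of its 4 other probe sets moving against the brightest. The fall of CRELD2 with mix 2 did not pass without control replicate B (-0.15, adjusted p = 0.0501) or C (-0.14, adjusted p = 0.063), and the mean of its probe sets put DNAJC10 at 0.04 with mix 1 (adjusted p = 0.664). In ER-associated degradation, where HERPUD1 acts, 11 of 19 rose and 5 fell with mix 1 (median 0.24) and 9 rose and 7 fell with mix 2 (median 0.12). The lectin OS9 (0.86 and 0.81) and the ubiquitin ligase RNF139 (0.70 and 0.66) rose, and the ubiquitin-conjugating enzyme UBE2G2 (-0.64 and -0.71) and FAF2 (-0.39 and -0.83) fell. Of 23 genes of ER translocation and export, 10 rose and 7 fell with mix 1 (median 0.17) and 8 rose and 5 fell with mix 2 (median 0.01). Without control replicate C, 5 were higher with mix 2. The shares over all genes were 34.8% higher and 32.3% lower with mix 1, and 36.7% and 31.9% with mix 2. The translocation and export counts with mix 2 were near or below these shares. The export receptor KDELR1 (0.84 and 0.75) and the coat protein gene SEC31A (0.77 and 0.94) rose, and the translocon-associated SSR3 (-1.65 and -0.60) and the receptor subunit SRPRB (-0.79 and -1.36) fell.

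**Figure D5:**
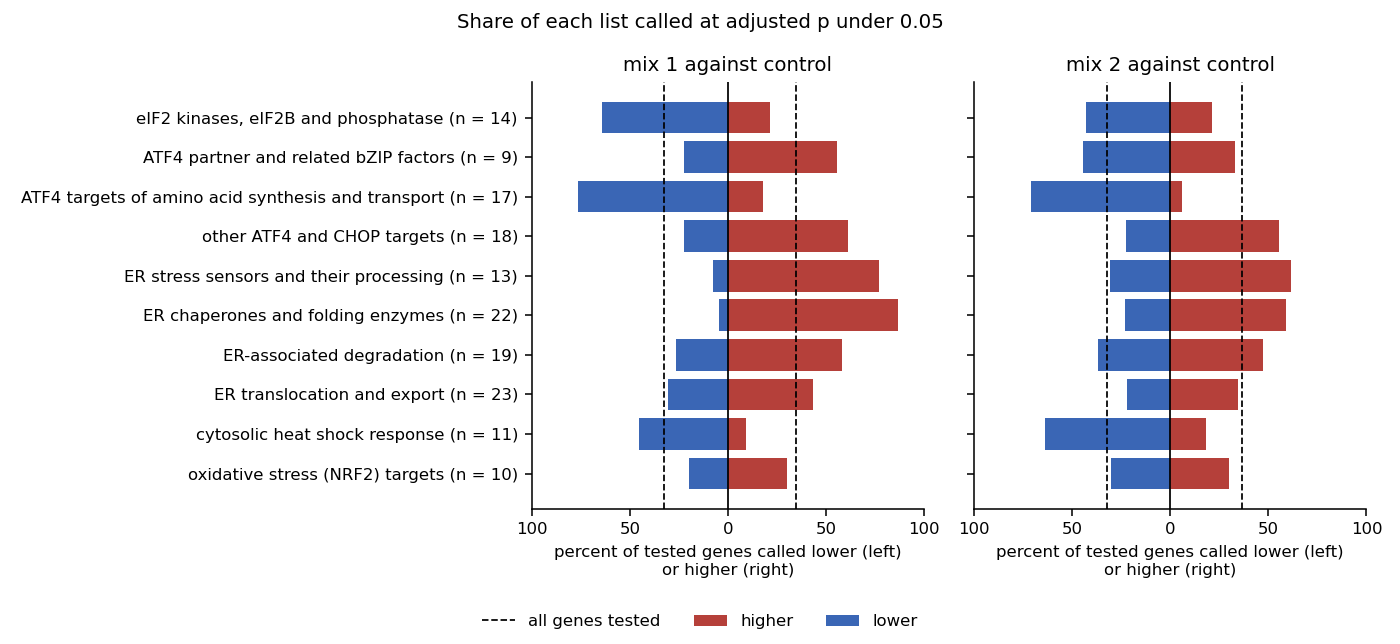
Percent of the tested genes of each list called lower (left of 0) and higher (right of 0) at limma adjusted p below 0.05 (x axis), for mix 1 and mix 2 against control; dashed lines give the percent of all 13225 genes. The amino acid list has 13 and 12 of 17 genes lower, and the ER chaperone list has 19 and 13 of 22 higher.

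Stress responses outside the ER were measured for comparison. The list of the cytosolic heat shock response also held 2 mitochondrial chaperonin genes, both lower under both mixes. Of its 11 tested genes 1 was higher and 5 lower with mix 1 (median -0.09). With mix 2, 2 were higher and 7 lower (median -0.44). BAG3, a cochaperone of HSP70, rose (0.80 and 0.68), and the mitochondrial chaperonin HSPE1 (-1.30 and -1.19) and HSPA4L (-0.89 and -1.12) fell. Of 10 tested targets of NRF2, the factor of the oxidative stress response, 3 rose and 2 fell with mix 1 and 3 rose and 3 fell with mix 2 (medians 0.08 and 0.04). Those higher with mix 1 were 5 of 10 without mix 2 replicate D and 0 of 7 without shared probe sets. NQO1 (0.96 and 1.12) and TKT (0.16 and 0.25) rose and SRXN1 (-0.71 and -0.58) fell. The mix 1 call of TKT (adjusted p = 0.0493) did not pass under 11 alternatives (adjusted p = 0.0512 to 0.125), among them leaving out control replicate B, C or D, any mix 1 replicate or mix 2 replicate A or B. The shares over all genes were 34.8% higher and 32.3% lower with mix 1, and 36.7% and 31.9% with mix 2. The NRF2 counts of the main fit were near or below these shares. Lists were described by counts and medians and were not tested as sets.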

How the data were processed

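Expression was measured on 12 arrays (4 control, 4 mix 1, 4 mix 2). Levels are log2 values as the authors deposited them, 1 per probe set and array; the submitters' processing notes name RMA, with software version and options not given in the sources used here. RMA in its usual form gives all arrays 1 distribution of probe values, which hides any change common to the whole transcriptome. Of 54675 probe sets, 41097 had exactly 1 gene symbol in the platform annotation, 1801 several and 11777 none here; 62 control probe sets were left out, and 41043 symbols were updated by gene ID through RefSeq. Probe sets with a mean above the 40th percentile (5.46) were kept (24650), and the brightest stood for each gene (13225 genes). limma 3.58.1 (R 4.3.3) was fitted with 3 group means (9 residual degrees of freedom) and default eBayes, two-sided, with Benjamini-Hochberg adjustment over all genes or, for probe sets, over all probe sets. The procedure was checked on simulated data. Errors of differences are standard errors of this fit. An array has no read depth, and the number of arrays limits the precision. The series text calls the replicates independent and handled in parallel.

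No label says what a replicate letter shares. Deviations from group means correlated between same-letter arrays at 0.370, 0.251, 0.409 and 0.340 (A to D) for mix 1 and control, all above 0.1. Unlike letters correlated too: control A with mix 1 B at 0.374, control C with mix 1 D at 0.286 and control B with mix 1 A at 0.232. The other unlike-letter pairs of these groups were negative. A pairing by letter is thus possible there but is not settled by these values. For mix 2 the same-letter values were 0.119, 0.034, 0.048 and 0.212 with control and 0.273, -0.085, 0.202 and 0.191 with mix 1. No group was treated as paired in the main fit, and a replicate block over all groups was fitted only as an alternative.

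The members, lists and tests were chosen with earlier results of these data known. Named genes were all members; of each list, up to 2 genes per direction called the same way under both mixes, by their mean difference; and the 3 genes nearest to ATF4 and to HSPA5; YAP1 and WWTR1 served as the check of the knockdown, and others are marked where named. The alternatives were no filter or the 60th percentile, the mean of probe sets, no shared probe sets, centred arrays, 2 groups per fit, trended robust eBayes, a replicate block and leaving out each array.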

Additional observations from a re-analysis of the deposited data

Results flagged for a closer look

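Among 51 groups of 4 values (17 probe sets in 3 groups), 3 had a value far from the others by Dixon's ratio of gap to range, and chance gives about 1 in 20. For the dim TRIB3 probe set, control replicate D stood at 5.73 with the next value at 5.24. The same probe set in mix 2 had replicate B at 5.30 with the next at 5.25. ASNS in mix 1 had replicate C at 9.71 with the other 3 at 9.65. The TRIB3 probe set lay below the filter and entered no comparison.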

How the results depend on the processing

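Of the member values recomputed under the alternatives, 571 kept their side of the threshold, 2 lost and 13 gained a call. A further 2, which had passed, reversed. Both were HSPA5 under the mean of its probe sets, at -0.01 with mix 2 against control and -0.11 with mix 2 against mix 1. Its probe sets move in opposite directions, and their mean also took the members higher between the mixes from 1 to 0. A value that had not passed was not counted as reversed when its sign changed. DNAJB9 between the mixes, at 0.12, read -0.44 without shared probe sets (adjusted p = 0.00331) and stands among the gained calls. Without shared probe sets EIF2S1 read 0.09 with mix 1 against control, and between the mixes EIF2S1 read -0.52, EIF2S2 -0.23 and PSPH 0.19; with mean probe sets EIF2S1 read -0.28 between the mixes and DNAJC10 0.04 with mix 1 against control. The cause was not tested. Member probe sets higher were 3 and 3 without shared probe sets (9 tested). At the level of genes, 34.4% and 34.6% of all genes were higher in that setting, and the share over probe sets was not counted. With the 60th percentile those lower with mix 1 were 3 of 12 tested. Leaving out 1 array gave 1 to 2 members, and 1 to 2 member probe sets, higher between the mixes. The replicate block left the member counts at 3 higher and 4 lower with mix 1, 4 and 6 with mix 2, and 1 and 3 between the mixes, and changed no call of a named gene. Of 1200 list counts under the alternatives 46 moved by over 1.5 times, 27 of them without shared probe sets, where fewer genes were tested and some shares changed too. Shared probe sets are the only ones above the filter for ASNS, HERPUD1 and SDF2L1. Signal near background limits CHAC1 and the dim probe sets.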
